A study of Mus musculus with 15 samples.

Results

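The 9 genes described here encode the receptors with which platelets attach to a damaged vessel wall and to each other. Itga2b and Itgb3 encode both chains of the fibrinogen receptor integrin αIIbβ3. Gp1ba, Gp1bb, Gp9 and Gp5 encode the GPIb-IX-V complex, which binds von Willebrand factor. Gp6 encodes the collagen receptor GPVI, Clec1b the podoplanin receptor CLEC-2 and Treml1 the α-granule receptor TREM-like transcript 1. They were chosen by name and function and make up 9 of the 43472 gene symbols counted, of which 13281 had at least 1 read in any library.

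RNA of plasma extracellular vesicles (EVs) had been sequenced in 15 libraries, 3 derived from wild type (WT, C57BL/6) mice, 6 from dystrophic and 6 from hypertrophic mice. The dystrophic mice were Sgcb null, without the muscle membrane protein β-sarcoglycan. For the hypertrophic mice the labels give MAGIC F1, a line with a chimeric factor that activates the Met receptor, and the methods of the RNA sequencing give Mstn-null, a line without myostatin, so only the condition was used. All mice were 3 to 6 months old, no agent is listed for any group beside the muscle phenotype itself, and each library pooled EVs from 2 to 3 mice. The methods list 10 Sgcb-null mice for plasma collection, while 6 separate pools of 2 or more need at least 12, so unless further mice were used the 6 dystrophic-derived libraries cannot all come from different mice. The same holds for either hypertrophic line. The p-values therefore measure only the spread between these libraries, which may be technical. The labels call the fluid serum and the study plasma. Clotting releases platelet contents into serum, and the part of the fluid in the receptor levels was not tested.

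Platelets carry RNA that they receive from megakaryocytes, and they shed vesicles that bear the same surface receptors. On a platelet, GPIb-IX-V catches von Willebrand factor under shear, GPVI and CLEC-2 signal through the kinase Syk, and αIIbβ3 is then switched to a state that binds fibrinogen and joins platelets to one another. Soluble and vesicle-bound forms of GPVI and TREM-like transcript 1 are known in plasma.

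The libraries held 27227 to 32563362 reads on genes, with medians of 601506 in WT-, 2419660 in dystrophic- and 3513267 in hypertrophic-derived libraries. Levels are given in CPM, counts per 1000000 reads on genes in that library. A gene without reads may have up to 3 reads per library, which is 0.0921 to 110 CPM, and these limits cover counting error only. The number in the title differed from that of the deposited counts, crossed between the conditions, in hypertrophic replicates 1 to 3 and in dystrophic replicates 4 to 6. These libraries were grouped by their labels. Sgcb had reads in 1 of 15 libraries, a hypertrophic-derived one, and Mstn in 0, so the targeted genes checked no label. Among the marker genes, the 9 platelet and megakaryocyte genes were each counted in at least 10 libraries, with a sum between 16907 and 61898 CPM, whereas of the 5 satellite cell genes only Itga7 had a read, in 1 library. Hemoglobin and other red cell genes summed to 22933 to 88148 CPM in WT-, 47208 to 155950 in dystrophic- and 29999 to 88291 in hypertrophic-derived libraries.

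The sequences just upstream of the genes with the most reads, Gp9 and Clec1b, are shown because both hold GATAAG, a motif of the kind bound by the megakaryocyte factor GATA1. Both come from RefSeq (GRCm38.p6), run 5′ to 3′ on the + strand and end at the base before the start annotated there. They span chr6:87777820-87778069 for Gp9 and chr6:129397047-129397296 for Clec1b. For Gp9 the RefSeq start differs from the GENCODE start given further on, 87778072. Capitals mark GATAAG and, near the 5′ end of the Gp9 sequence, GGAAGT, a motif of the ETS type.
Gp9: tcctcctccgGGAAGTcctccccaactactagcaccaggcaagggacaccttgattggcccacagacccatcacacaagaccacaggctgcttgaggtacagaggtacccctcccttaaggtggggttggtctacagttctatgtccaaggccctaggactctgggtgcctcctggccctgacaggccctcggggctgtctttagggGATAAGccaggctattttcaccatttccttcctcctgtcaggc
Clec1b: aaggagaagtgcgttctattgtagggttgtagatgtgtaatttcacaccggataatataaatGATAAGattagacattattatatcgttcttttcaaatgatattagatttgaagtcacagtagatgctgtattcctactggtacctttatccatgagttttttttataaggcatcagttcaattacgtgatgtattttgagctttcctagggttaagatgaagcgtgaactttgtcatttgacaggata
The letters GATAAG, searched on both strands, were found in the 250 bases upstream of 4 of the 8 receptor genes with a promoter entry, 43 bases before the start in Gp9, 103 in Gp1ba, 143 in Gp6 and 188 in Clec1b. Of 32851 promoters of the same length, 6.55% held it. The letters GGAAGT, also searched on both strands, were found in Gp9, Gp5 and Itga2b and in 19.7% of all promoters. These motifs were chosen after the sequences were seen, and a match is a description of letters, not of a binding site.

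Receptor transcripts were counted in all 15 libraries, but rarely all of them together. Gp9 had reads in 15 libraries, Clec1b in 14, Itga2b and Gp1bb in 13, Itgb3, Gp6 and Treml1 in 12, Gp1ba in 10 and Gp5 in 7. The 9 receptors were all counted in 5 libraries, WT replicate 2, dystrophic replicates 1, 5 and 6, and hypertrophic replicate 6. In 4 libraries 8 were counted, in 3 libraries 6, in 1 library 5 and in 2 libraries 4.

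Most of the missing receptors would have had 10 reads or more at their median level in other libraries. Of the 135 pairs of a gene and a library, 100 had at least 10 reads, 8 had 1 to 9 reads and 27 had none. In 22 of these 27 pairs, the median level of the gene over the other 14 libraries would have given 10 reads or more at that depth, and in 24 the median over the other libraries of the same condition. Gp1ba, for example, had 0 reads in hypertrophic replicate 2, where 213 would have been counted at its median level in the other 14 libraries, and Treml1 had 0 in dystrophic replicate 3, where 500.5 would have been. These zeros lay next to high counts of other receptors in the same library. The RNA had been amplified, so expected reads do not measure the molecules sampled. The cause of the zeros was not tested.

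**Figure D1:**
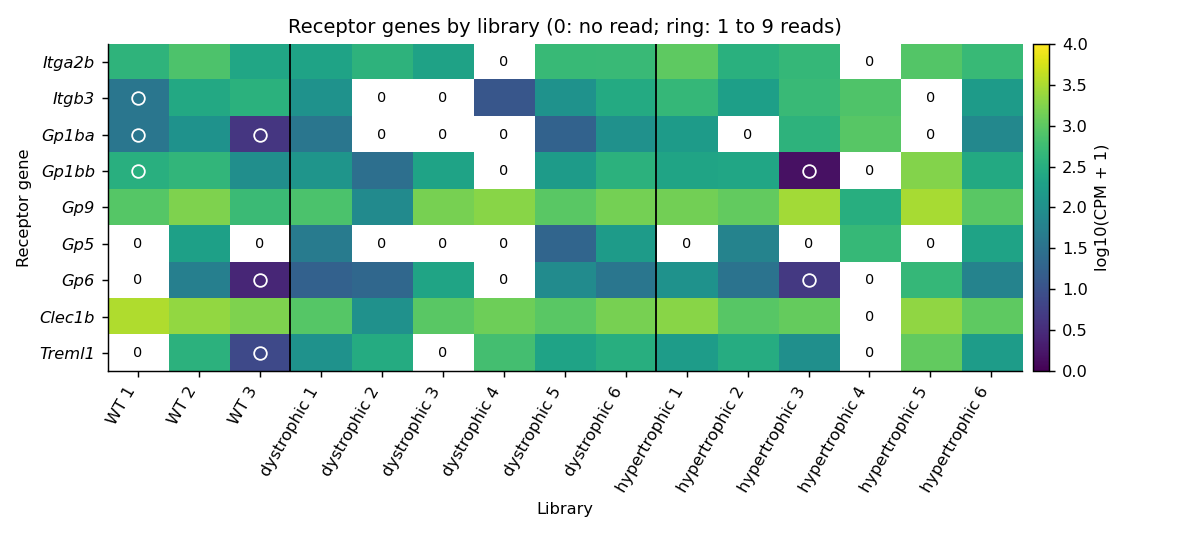
Heat map of log10(CPM + 1) of the 9 receptor genes (vertical axis) in the 15 libraries (horizontal axis, grouped by condition with black lines between). A white cell with 0 had no read, and a ring marks 1 to 9 reads; only Gp9 has no white cell, and dystrophic 4 and hypertrophic 4 have 5 each.

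The number of receptors counted overlapped between the conditions. Dystrophic-derived libraries held 7 of the 9 on average, hypertrophic-derived ones 7.17 and WT-derived ones 7.67. With at least 10 reads as the minimum this order turned, and dystrophic- and hypertrophic-derived libraries then held 1.33 and 1.17 receptors more than WT-derived ones. Of the 9 receptors, 0 passed the test of detection between any 2 conditions at an adjusted or an unadjusted p under 0.05 (Fisher's exact test, two-sided, Benjamini-Hochberg over 6887 genes). Of all genes, 1.05%, 0.261% and 0.334% passed at the unadjusted threshold in dystrophic against WT, hypertrophic against WT and hypertrophic against dystrophic. Most receptors could not pass in any comparison, since a gene counted in nearly all libraries of both conditions cannot reach p under 0.05 in this test. The result for the receptors therefore cannot be weighed against these percentages and does not show equal detection. Across the 15 libraries, which share their depth with the measure, the number of receptors counted ran with the reads per library (Spearman's rho 0.61) and with the number of genes detected (rho 0.839). Reduced to the 27227 reads of the shallowest library, the expected number of receptors differed from WT by −0.51 in dystrophic- and by 0.022 in hypertrophic-derived libraries.

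Summed over the 9 genes, the receptors took between 0.0902% (dystrophic replicate 2) and 0.944% (hypertrophic replicate 5) of the reads on genes. WT-derived EVs had a sum of 4678 ± 1622 CPM (SD, n = 3), dystrophic-derived EVs one of 2972 ± 1328 (SD, n = 6) and hypertrophic-derived EVs one of 4895 ± 2538 (SD, n = 6). The 3 ranges, 2908 to 6093, 902 to 4741 and 2517 to 9440 CPM, overlapped. In this bulk RNA, fewer vesicles of platelet origin and less receptor RNA per vesicle cannot be told apart.

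**Figure D2:**
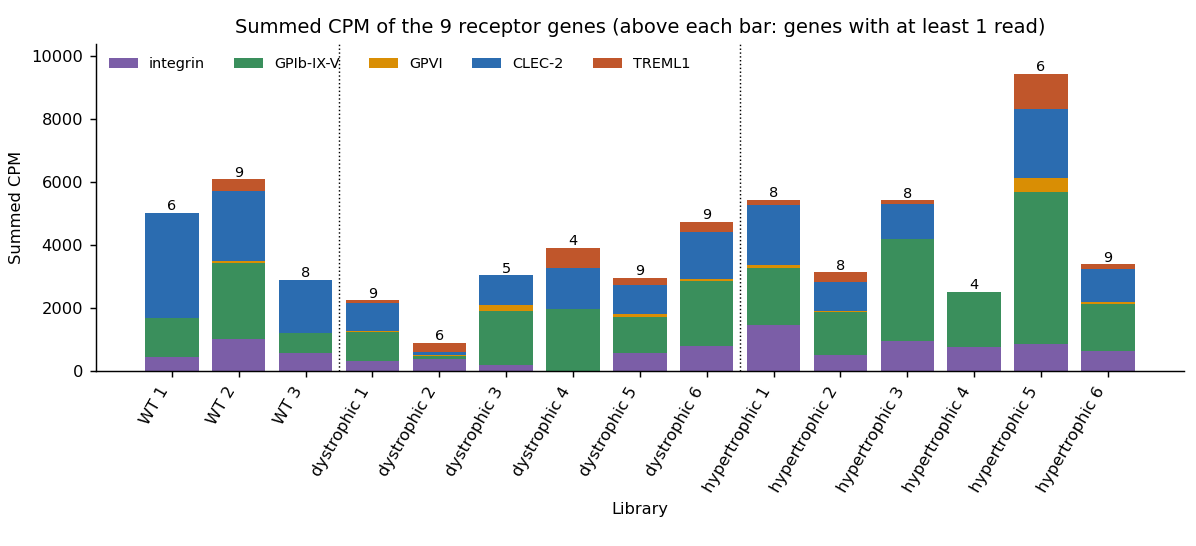
Summed CPM of the receptor genes (vertical axis) in each library (horizontal axis), stacked by receptor: integrin αIIbβ3 (Itga2b and Itgb3), GPIb-IX-V (Gp1ba, Gp1bb, Gp9 and Gp5), GPVI (Gp6), CLEC-2 (Clec1b) and TREML1 (Treml1). Numbers above the bars count the receptor genes with at least 1 read; the bars run from 902 CPM in dystrophic 2 to 9440 CPM in hypertrophic 5.

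Per kilobase of annotated exon, Gp9 had the highest level, with a median of 1219 CPM per kb over the 15 libraries, and it was above Clec1b (220 CPM per kb) in 15 of 15 libraries. The medians of the others followed with 116 CPM per kb for Treml1, 99.9 for Gp1bb, 74.1 for Itga2b, 26.1 for Itgb3, 13.5 for Gp1ba, 5.58 for Gp6 and 0 for Gp5. Below Gp9 no neighbouring pair kept its order in every library. Clec1b was above Treml1 in 10 libraries and below it in 4, and Gp6 was above Gp5 in 7 and below it in 6. Lengths are the union of all exons of a gene in GENCODE M21, so a gene with long alternative exons has a lower value per kb. The order of Gp9 and Clec1b rests on their lengths of 0.881 and 5.103 kb. In CPM, not divided by length, Clec1b had the higher median (1124 against 1074 CPM). Clec1b was then the highest receptor in 7 libraries and Gp9 in 6.

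Clec1b (ENSMUSG00000030159.15, chromosome 6 from 129397297 to 129409335 of GRCm38, + strand) was the receptor whose level came closest to separating 2 conditions. CLEC-2, its product, is bound by podoplanin on lymphatic endothelium and signals through Syk. Its level was 3342, 2234 and 1671 CPM in the 3 WT-derived libraries. In dystrophic-derived EVs it ran from 104 to 1503 CPM with a median of 936, and in hypertrophic-derived EVs from 0 to 2184 with a median of 1079. Every WT-derived library was above every dystrophic-derived one, while the hypertrophic-derived libraries overlapped with both. The same order in this direction was shown by 19 of the 6887 genes tested (0.276%). Most of these genes could not show it, since it needs reads in every WT-derived library and WT replicate 1 had reads of 797 genes. The percentage therefore does not measure how rare the order is among genes that could show it. Of the genes in the lists described further on, 3, named after their values were seen, were separated in the same way, Ppbp (9460 to 12377 CPM in WT- against 4857 to 8936 in dystrophic-derived libraries), P2ry12 (1088 to 2571 against 426 to 914) and Fcer1g (331 to 380 against 0 to 304). Hypertrophic replicate 4 held no Clec1b read, where 547 would have been counted at its median level in the other 14 libraries.

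The mean level of Clec1b in dystrophic-derived EVs was 0.391 times that in WT-derived EVs. The difference in mean log2(CPM + 1) was −1.65 (exact permutation test, two-sided, p = 0.02381, the smallest that 6 against 3 libraries allow, Benjamini-Hochberg adjusted p = 1 over 6887 genes). edgeR's quasi-likelihood test gave −1.16 for the log2 fold change, with a standard error of 1.06, an adjusted p of 0.695 and an approximate 95% interval from −3.23 to 0.91. Against WT, hypertrophic-derived EVs gave −1.21 (standard error 1.06, adjusted p = 0.6124 from edgeR) and an exact permutation p of 0.09524. Without the 3 libraries under 500000 reads, which include a WT-derived one, the exact permutation p against dystrophic was 0.0714, the smallest that 6 against 2 allow. Clec1b shares 3.61% of its exon bases with Clec9a on the same strand.

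**Figure D3:**
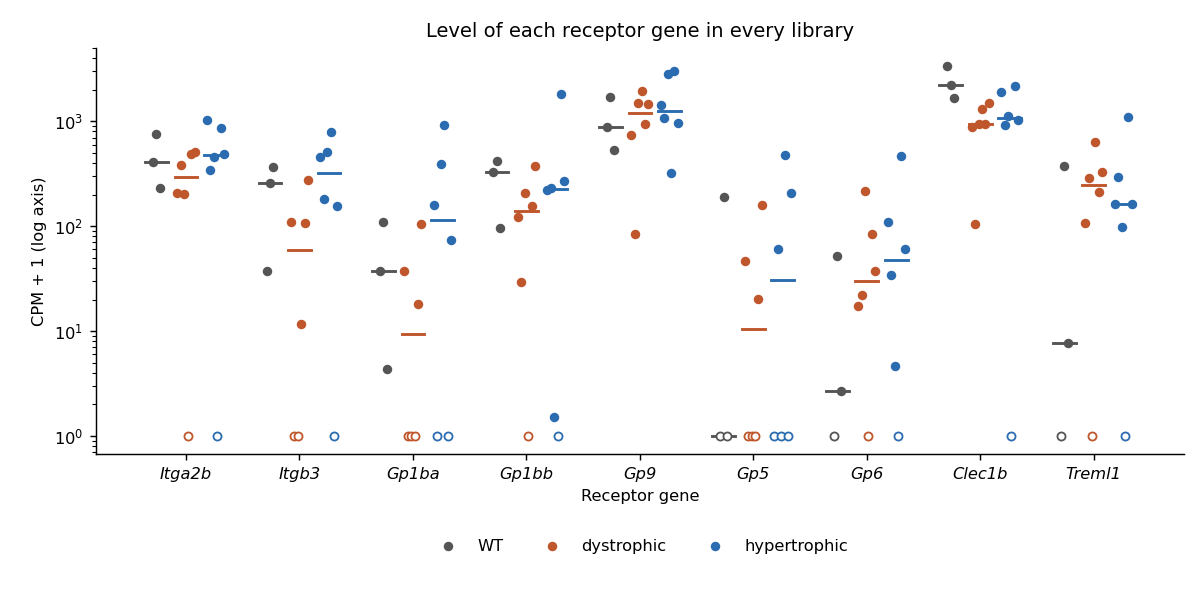
CPM + 1 (vertical axis, log scale) of each receptor gene (horizontal axis) in the 3 WT-, 6 dystrophic- and 6 hypertrophic-derived libraries. Each point is a library, open points had no read, and a short line is the median of a condition; Clec1b is the receptor with all 3 WT-derived points (1671 to 3342 CPM) above all 6 dystrophic-derived points (104 to 1503 CPM).

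The integrin chains, whose products form a pair on the platelet, were often not counted together. Itga2b (ENSMUSG00000034664.13, chromosome 11 from 102453297 to 102470122, − strand) encodes the αIIb chain, made nearly only in the megakaryocyte lineage, and had 404, 752 and 231 CPM in WT-derived libraries. It ran from 0 to 514 CPM with a median of 295 in dystrophic-derived and from 0 to 1019 CPM with a median of 474 in hypertrophic-derived libraries. The ranges overlapped, and 1 library of each muscle condition, replicate 4 in both, had no read of it. Where it was counted it varied 5.01-fold, the narrowest range of the 9 receptors.

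Itgb3 (ENSMUSG00000020689.4, chromosome 11 from 104608000 to 104670476, + strand) encodes the β3 chain, which other cells also pair with the αv chain. Its level was 36.7, 257 and 364 CPM in WT-derived libraries, 0 to 277 CPM with a median of 58.6 in dystrophic-derived ones, and 0 to 785 CPM with a median of 319 in hypertrophic-derived ones. Of the hypertrophic-derived libraries, 5 lay between 154 and 785 CPM and replicate 5 had no read, while 5 of the dystrophic-derived ones lay between 0 and 108 CPM. The log2 fold change of hypertrophic against dystrophic was 1.28 (standard error 1.72, adjusted p = 0.9998 from edgeR), and the exact permutation p was 0.184. Each library was left out in turn, and hypertrophic replicate 5, the one without a read, is named here after its value was seen. Without it the exact permutation p became 0.0216. With the counts of the 6 crossed libraries given by the numbers in the titles the exact permutation p became 0.812.

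Both integrin chains were counted in 10 libraries, Itga2b alone in 3 and Itgb3 alone in 2. Where both were present, the ratio of Itga2b to Itgb3 in CPM ran from 0.635 to 11 with a median of 2.07. Their rank correlation across the 15 libraries was low (Spearman's rho 0.0987). Itgb3 instead ran with Gp1ba (rho 0.821), and Itga2b with Gp1bb (rho 0.71) and Gp6 (rho 0.628). Over the 36 pairs of receptors rho ranged from −0.321 to 0.821 with a median of 0.206, and 25 pairs were positive. All these pairs share their libraries and their depth.

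In the GPIb-IX-V complex, Gp9 was counted in all 15 libraries and Gp5 in 7. Gp9 (ENSMUSG00000030054.4, chromosome 6 from 87778072 to 87779768, + strand) encodes GPIX, needed to bring the complex to the surface, and had 881, 1705 and 535 CPM in WT-derived libraries. It ran from 82.5 to 1962 CPM with a median of 1199 in dystrophic-derived and from 324 to 3012 CPM with a median of 1245 in hypertrophic-derived libraries. The 3 conditions overlapped. The mean was 1041 ± 601 (SD, n = 3), 1111 ± 666 (SD, n = 6) and 1603 ± 1084 CPM (SD, n = 6), and the edgeR log2 fold changes, 0.06, 0.20 and 0.15 in the 3 comparisons, were under their standard errors of 0.92 to 1.13.

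Gp1ba (ENSMUSG00000050675.7, chromosome 11 from 70639122 to 70642036, + strand) encodes the chain that binds von Willebrand factor. It had 36.7, 109 and 3.33 CPM in WT-derived libraries, the first and the last of these from 1 and 2 reads. In dystrophic-derived libraries it ran from 0 to 103.5 CPM with a median of 8.48, and in hypertrophic-derived libraries from 0 to 927 CPM with a median of 114.5. It was absent from 3 dystrophic- and 2 hypertrophic-derived libraries, and the highest value was in hypertrophic replicate 4, a library without Itga2b, Gp1bb, Gp6, Clec1b and Treml1. Its log2 fold change of 2.25 between hypertrophic- and dystrophic-derived EVs was the highest of all 27 for the receptors (standard error 2.29, adjusted p = 0.9998 from edgeR), and it ran from 0.45 to 3.72 under the alternative settings.

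Gp1bb (ENSMUSG00000050761.4, chromosome 16 from 18620317 to 18622403, − strand) encodes the chain joined to GPIbα by a disulfide bond. Its level was 331, 422 and 94.8 CPM in WT-derived libraries, 0 to 372 CPM with a median of 138 in dystrophic-derived ones and 0 to 1810 CPM with a median of 224 in hypertrophic-derived ones. Of its exon bases 92.9% also belong to Sept5 or the readthrough gene Gm49601 on the same strand, so its count depends on how the authors' counting treated reads of overlapping genes and is uncertain. Gp1bb was counted together with Gp1ba in 9 libraries and with Gp9 in 13.

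Gp5 (ENSMUSG00000047953.7, chromosome 16 from 30307685 to 30310779, − strand) encodes GPV, which thrombin cleaves from the platelet surface. It had 0, 189 and 0 CPM in WT-derived libraries, and 3 of 6 dystrophic-derived and 3 of 6 hypertrophic-derived libraries had no read. Where counted it ran from 19.03 to 158 CPM in the former and from 59.8 to 481 CPM in the latter. The highest value was again in hypertrophic replicate 4, as for Gp1ba and Itgb3.

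Gp6 (ENSMUSG00000078810.4, chromosome 7 from 4363965 to 4397744, − strand) encodes the platelet collagen receptor, which signals through the Fc receptor γ chain encoded by Fcer1g. Its level was 0, 51.4 and 1.66 CPM in WT-derived libraries, 0 to 218 CPM with a median of 28.7 in dystrophic-derived ones and 0 to 468.5 CPM with a median of 46.4 in hypertrophic-derived ones. The conditions overlapped. Every library with Gp6, 12 in all, also held Fcer1g reads, but Fcer1g had reads in 14 of the 15 libraries. The rank correlation of Gp6 and Fcer1g was low (Spearman's rho 0.0179). Treml1 (ENSMUSG00000023993.7, chromosome 17 from 48359916 to 48367176, + strand) encodes a receptor stored in α-granules and exposed on activated platelets. It had 0, 372 and 6.65 CPM in WT-derived libraries, 0 to 640 CPM with a median of 248 in dystrophic-derived ones and 0 to 1107 CPM with a median of 162 in hypertrophic-derived ones. Its conditions overlapped as well.

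All 9 receptors passed edgeR's expression filter, and none passed its test in any comparison. At an adjusted p under 0.05 edgeR called 0 of 9 in each comparison, against 0.0145% of 6887 genes in dystrophic against WT, 0.0290% in hypertrophic against WT and 0.0145% in hypertrophic against dystrophic. At an unadjusted p under 0.05 it also called 0 of 9 in either direction. Of all genes, 0.465% were then lower and 1.55% higher in dystrophic- than in WT-derived EVs, 6.35% lower and 1.67% higher in hypertrophic- than in WT-derived ones, and 11.4% lower and 0.566% higher in hypertrophic- than in dystrophic-derived ones. DESeq2 called 0 of 9 in each comparison, while it called 21.1%, 24.5% and 5.17% of the 6242 genes to which it gave an adjusted p. In the exact permutation test of the levels, only Clec1b in dystrophic against WT had an unadjusted p under 0.05, against 1.26% of genes, and 0 of 9 receptors passed in the other comparisons, against 0.784% and 2.89%.

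**Figure D4:**
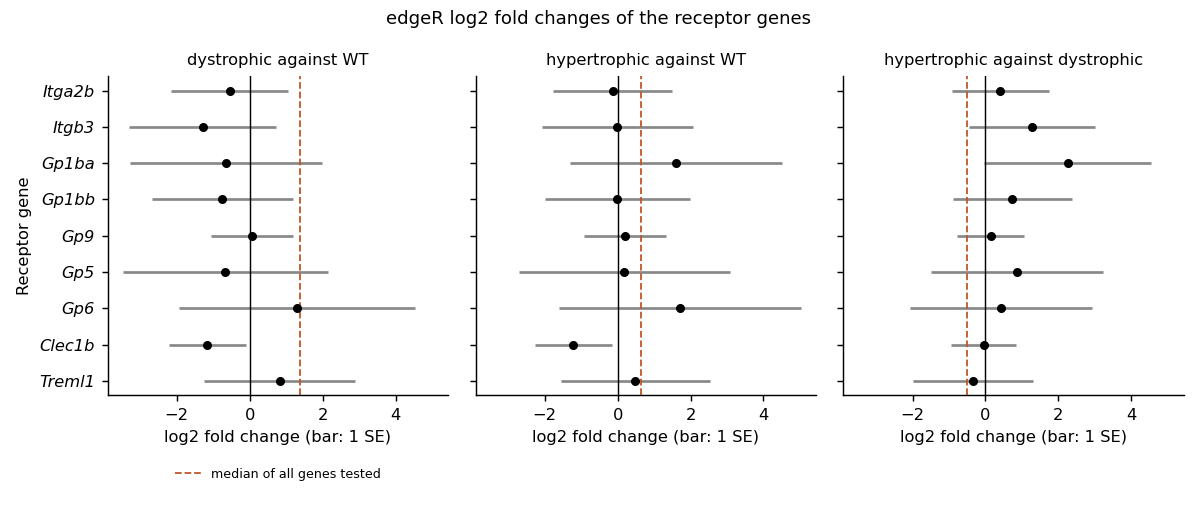
edgeR log2 fold changes (horizontal axis) of the 9 receptor genes (vertical axis) in the 3 comparisons, with bars of 1 standard error, a solid line at 0 and a dashed line at the median of the 6887 genes tested. No receptor had an adjusted p under 0.05; the bars of Clec1b lie below 0 in both comparisons against WT (−1.16 and −1.21).

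The standard errors were wide, from 0.89 to 3.31 on the log2 scale, with a biological coefficient of variation of 3.04 over the 6887 genes. The intervals therefore include large changes in both directions, for Gp9 in hypertrophic against WT from −2.02 to 2.42 on the log2 scale. The median log2 fold change of the receptors was −0.65, 0.19 and 0.42 in dystrophic against WT, hypertrophic against WT and hypertrophic against dystrophic, beside 1.38, 0.66 and −0.52 over all genes tested. In dystrophic against WT, 6 of 9 receptors had a fold change under 0, and so did 29.9% of all genes. In hypertrophic against WT, 4 of 9 were under 0 and 37.7% of all genes, and in hypertrophic against dystrophic, 2 of 9 and 62.6%. Library size without TMM moved the median of all genes to 1.57, 1.02 and −0.37.

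Of the 18 genes of integrin activation and of GPVI or CLEC-2 signalling, 17 were tested and 0 passed at an adjusted or an unadjusted p under 0.05 in any comparison (edgeR), with medians of −0.38, 0.96 and 0.66 on the log2 scale. Rap1b, the small GTPase that activates αIIbβ3, was counted in all 15 libraries with 1236 ± 351 CPM (SD, n = 3) in WT-, 1511 ± 384 (SD, n = 6) in dystrophic- and 1897 ± 1190 (SD, n = 6) in hypertrophic-derived EVs. Rasgrp2, its exchange factor, was counted in 11 libraries with a mean of 573 CPM over all. Fermt3, which encodes kindlin-3, had 131 ± 162 CPM in WT-, 287 ± 175 in dystrophic- and 955 ± 755 in hypertrophic-derived EVs. The summed level of these genes ran with that of the 9 receptors (Spearman's rho 0.736, 15 libraries).

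Of 22 other platelet receptors, 18 were tested and 0 passed at an adjusted p under 0.05 in any comparison. At an unadjusted p under 0.05 from edgeR only Cd9 passed, in hypertrophic against dystrophic (log2 fold change 0.70, standard error 0.34, adjusted p = 0.3382 from edgeR). Cd9, a tetraspanin of platelets and of many EVs, had 7892 ± 3836 CPM (SD, n = 6) in dystrophic- and 16579 ± 9699 (SD, n = 6) in hypertrophic-derived EVs, beside 12080 ± 4535 (SD, n = 3) in WT-derived ones. P2ry12, the ADP receptor, was counted in all 15 libraries at 1640 ± 811, 639 ± 201 and 793 ± 466 CPM in WT-, dystrophic- and hypertrophic-derived EVs. Cd226 was counted in 13 libraries with a mean of 425 CPM. The summed level of this list had a rho of 0.543 with that of the 9 receptors.

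The ligands of the receptors were counted far less often. Of 12 ligand genes, 3 had reads in at least 10 libraries and 7 were tested, with 0 called at either threshold by edgeR. DESeq2, whose calls among the lists were named after their values were seen, called Fgb in both comparisons against WT and Col1a2 in dystrophic against WT. Fgb had reads in 0 of 3 WT-, 1 of 6 dystrophic- and 2 of 6 hypertrophic-derived libraries. Col1a2 had reads in 1 of 3 WT- and 5 of 6 dystrophic-derived libraries. Vwf, von Willebrand factor, and Thbs1, thrombospondin, both of which platelets carry, had reads in 11 libraries with means of 180 and 153 CPM, and Col1a1 in 7 with 77.1 CPM. Of 8 megakaryocyte transcription factors, 7 were tested and 0 passed at an adjusted p under 0.05 from edgeR. At an unadjusted p from edgeR, Zfpm1 alone, named after its value was seen, was lower in hypertrophic against dystrophic. It had reads in 0 of 6 and 3 of 6 libraries, and its exact permutation p was 0.1818. Nfe2, which directs platelet formation, was counted in all 15 libraries with 385 ± 244, 72.8 ± 98.4 and 598 ± 432 CPM in WT-, dystrophic- and hypertrophic-derived EVs, Tal1 in 11 libraries and Gfi1b in 5. The unadjusted exact permutation p of Nfe2 was 0.008658 in hypertrophic against dystrophic, 0.04762 in dystrophic against WT and 0.7143 in hypertrophic against WT. Its unadjusted p from edgeR was 0.1939, 0.2306 and 0.9594 in the same order. At an adjusted p under 0.05, 0 of 6887 genes passed the permutation test in any comparison.

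Among marker lists, the summed level of the 9 platelet and megakaryocyte genes ran with that of the receptors (rho 0.804) and that of the red cell genes did not (rho −0.189). Of the platelet and megakaryocyte genes 0 of 9 passed at an adjusted p under 0.05 from edgeR. At an unadjusted p from edgeR, Gng11 was lower in hypertrophic against WT and Ppbp higher in hypertrophic against dystrophic. Ppbp, Gng11 and Pf4 had means of 11443, 7165 and 6827 CPM over all libraries. The red cell list held the only edgeR call among all lists, Hbb-bs in hypertrophic against dystrophic. It was lower in hypertrophic-derived EVs (log2 fold change −1.01, standard error 0.20, adjusted p = 0.003061 from edgeR). DESeq2 did not call Hbb-bs there (adjusted p = 0.9999), and its exact permutation p was 0.06926. Its levels overlapped, with 15932 to 46535 CPM in hypertrophic- and 31371 to 75123 CPM in dystrophic-derived libraries. Hba-a1 and Hba-a2 had means of 15040 and 9565 CPM. The leukocyte list (6 of 8 tested, led by Lyz2, S100a9 and S100a8), the endothelial list (4 of 6, Egfl7, Cldn5 and Emcn), the liver list (3 of 4, Alb, Ttr and Apoa1) and the skeletal muscle list (2 of 5, led in level by Acta1, Mylpf and Ckm) gave 0 calls at an adjusted p from edgeR, and rho with the receptor sum was 0.114, 0.167, 0.0406 and −0.251. The 2 skeletal muscle genes tested were Acta1 and Tnnt3. Of the liver and endothelial genes, DESeq2 called at an adjusted p Apoa1 in dystrophic against WT, with reads in 0 of 6 and 1 of 3 libraries. The 1 WT-derived library with Apoa1 had 1.66 CPM. DESeq2 also called Cldn5 in hypertrophic against WT, with reads in 0 of 6 and 1 of 3. In hypertrophic against dystrophic it called Apoa1, with reads in 3 of 6 and 0 of 6, and Ttr, in 4 of 6 and 0 of 6. At an unadjusted p from edgeR, Cldn5 was lower in hypertrophic-derived EVs than in both others, and Apoa1 and Ttr were higher than in dystrophic-derived ones. The liver genes summed to at most 6.65 CPM in WT-, 156 in dystrophic- and 1275 in hypertrophic-derived libraries.

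The genes whose level was most like the summed level of the 9 receptors across the 15 libraries, among 1277 with reads in at least 10 of them, were Ctla2a (Spearman's rho 0.854), Hist1h2bc (0.85), Myl9 (0.839), Prkar2b (0.839) and Zyx (0.836). All 5 were counted in every library. The genes most like Itga2b were Snn (rho 0.832), Fam45a (0.819), Asb1 (0.775), Cd84 (0.775) and Ctsd (0.767), counted in 10 to 14 libraries. Cd84 is itself a receptor on platelets. These correlations describe these libraries and carry no test.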

How the data were processed

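RNA of plasma EVs was analysed in 15 libraries (3 WT-, 6 dystrophic- and 6 hypertrophic-derived). The authors amplified the RNA and sequenced single reads of 50 bases, and per the submitters' processing notes the reads were processed with TopHat on mm10, HTSeq and DESeq. The authors deposited raw counts per gene symbol, neither normalized nor filtered. How the counting treated strand and overlapping genes is not given in the sources used here. The labels name a stranded mRNA kit and polyA RNA, and the study another kit and total RNA.

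The 5 summary lines of each table, which name no gene and held 57.9% to 99.2% of its numbers, were left out. CPM was computed over the 43472 symbols. All 9 receptors were located in GENCODE M21 (GRCm38), and promoter sequences came from RefSeq (GRCm38.p6). Differential expression was tested with edgeR 4.0.16 (quasi-likelihood test, TMM, filterByExpr, all 15 libraries, 3 conditions, no covariate, R 4.3.3) with Benjamini-Hochberg adjustment over 6887 genes. The mean log2(CPM + 1) of 2 conditions was set against all regroupings of their libraries (exact permutation test, two-sided), with p as the smaller one-sided p times 2, and detection (at least 1 read) with Fisher's exact test. The procedures were tested on simulated data. For edgeR the simulation had to recover known changes only at a spread far below that of these libraries. It therefore does not show how well edgeR finds changes at their spread. Limits for genes without reads cover counting error only, since copies made by amplification are not independent molecules, whereas the intervals of fold changes rest on edgeR's standard errors between libraries. Depth ran from 27227 to 32563362 reads, and in the shallowest library a gene without reads may have a level of up to about 110 CPM.

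Named genes are all 9 receptors, the 5 genes with the highest Spearman correlation with their sum and with Itga2b, and from each list the 3 with the highest mean CPM and any with an adjusted p under 0.05. The receptors, lists and tests were chosen with earlier results of these data known. Alternatives were DESeq2 1.42.0, other normalizations, filters and pseudocounts, exchanging or leaving out the 6 libraries with crossed numbers, and leaving out each library. Leaving out the 3 libraries under 500000 reads was chosen after seeing the data.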

Additional observations from a re-analysis of the deposited data

Results flagged for a closer look

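In the groups of 6 libraries, the receptor genes were checked for a library far from the others (Dixon's test of the gap to the nearest library), over 18 pairs of a gene and a condition. Chance alone flags about 1 in 20 pairs if values are normally distributed. These CPM values include many zeros, so their chance rate is not known. The check picked out 5 pairs. In hypertrophic-derived EVs, replicate 5 stood apart for 3 genes, with 1810 CPM of Gp1bb (next library 268.8 CPM), 468.5 CPM of Gp6 (next 108.6 CPM) and 1107 CPM of Treml1 (next 293.9 CPM). This library had 328710 reads on genes and 814 genes detected, and no read of Itgb3, Gp1ba or Gp5. In dystrophic-derived EVs, replicate 6 stood apart for Gp1ba with 103.5 CPM (next 36.73 CPM) and Gp5 with 158.1 CPM (next 45.28 CPM). It was the deepest library, with 32563362 reads.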

How the results depend on the processing

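No receptor was called in any of 75 recomputed counts (edgeR or DESeq2), and the lowest adjusted p of a receptor was 0.463 (Clec1b, dystrophic against WT, library size without TMM). All 48 recomputed differences in receptors counted per library moved by less than 1 SD, but their sign turned against WT at a minimum of 5 reads (1 in both comparisons) and of 10 reads (1.33 in dystrophic, 1.17 in hypertrophic). Of the 27 receptor log2 fold changes, none called, 9 kept 1 sign under every alternative, among them Clec1b against WT in both comparisons (−2.08 to −0.74 in dystrophic, −1.64 to −0.95 in hypertrophic).

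Genes called in dystrophic against WT, hypertrophic against WT and hypertrophic against dystrophic (1, 2 and 1) became 1315, 1528 and 323 with DESeq2, 0 in each with no filter or without mitochondrial and hemoglobin genes. In dystrophic against WT they became 3 without TMM, 3 without and 2 with exchanged crossed libraries, and 4 without the 3 shallow libraries; in hypertrophic against dystrophic 0, 0 and 6 under the last 3. With 1 library left out they ran from 1 to 2, 1 to 3 and 0 to 2. The cause was not tested.

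Receptors with an exact permutation p under 0.05 (1, 0 and 0) became 0 in dystrophic against WT without the crossed or the shallow libraries (Clec1b difference −2.39 and −1.39, in designs whose smallest p is 0.1 and 0.0714), 1 in hypertrophic against WT (Clec1b) on TMM library sizes, without mitochondrial and hemoglobin reads and with exchanged libraries, and 1 in hypertrophic against dystrophic (Itgb3) without the shallow libraries; with 1 library left out they were 0 to 1, 0 and 0 to 1. Leaving out any WT-derived library leaves a design that cannot reach p under 0.05 against dystrophic.

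Log2 fold changes crossed 0 as follows. In dystrophic against WT: exchanged libraries, Gp1ba 0.63 and Treml1 −0.04; without the crossed, Gp9 −0.87 and Treml1 −0.44; without the shallow, Gp9 −0.26. In hypertrophic against WT: DESeq2, Itga2b 0.22, Itgb3 0.69 and Gp1bb 0.57; no TMM, Itga2b 0.20, Itgb3 0.66 and Gp1bb 0.59; TMMwsp, Gp1bb 0.12; no filter, Itgb3 0.09; at least 10 counts in 3 libraries, Itgb3 0.00; only the conditions compared, Itgb3 0.01; without the crossed, Gp1bb 0.50 and Gp9 −0.28; exchanged, Gp1bb 0.19; without the shallow, Gp5 −0.61 and Treml1 −0.30. In hypertrophic against dystrophic: exchanged, Itga2b −0.01, Itgb3 −0.11, Clec1b 0.33 and Treml1 1.17; without the crossed, Clec1b 0.44 and Treml1 1.09; without the shallow, Gp6 −0.10 and Clec1b 0.23; DESeq2, Clec1b 0.31 and Treml1 0.16; no TMM, Clec1b 0.34 and Treml1 0.22; TMMwsp, Clec1b 0.04; only the conditions compared, Clec1b 0.08.

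With 1 library left out, those that crossed 0 ran in dystrophic against WT from −2.08 to 1.42 for Gp1ba, −2.34 to 10.62 for Gp5, −0.26 to 0.87 for Gp9 and −0.91 to 0.15 for Itga2b; in hypertrophic against WT from −0.88 to 0.85 for Gp1bb, −0.55 to 11.45 for Gp5, −0.12 to 1.04 for Gp9, −0.45 to 0.68 for Itga2b, −0.54 to 0.64 for Itgb3 and −0.09 to 5.27 for Treml1; in hypertrophic against dystrophic from −0.28 to 0.27 for Clec1b, −0.13 to 1.51 for Gp1bb, −0.42 to 0.92 for Gp6, −0.13 to 0.38 for Gp9, −0.03 to 0.77 for Itga2b and −0.88 to 0.03 for Treml1. No paired analysis was possible because the labels carry no replicate numbers shared between conditions.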
